A study of Arabidopsis thaliana with 4 samples.

Results

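The chloroplast genome encodes a set of subunits of the NADH dehydrogenase-like complex (NDH), and 10 of their genes were examined here across albino and normal plants of Arabidopsis thaliana. The members were the probe sets whose platform annotation names exactly 1 gene, with the symbol ndhA, ndhC, ndhD, ndhE, ndhF, ndhG, ndhH, ndhI, ndhJ or ndhK. Each gene had 1 such probe set, so the members were 10 of the 13356 genes that the array measured with a probe set of their own and 10 of its 22746 probe sets. The probe set annotated to the repeated gene ndhB names several genes and was not used here.

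The study measured 4 arrays, in 2 groups of 2. The group labelled control held normal-looking segregants, and the group labelled albino held albino segregants, of a line named DS 13-2198-1. Both kinds of plant came from the same parental line, were raised side by side on diluted Murashige and Skoog plates (2% sucrose), and were 3 weeks old, at 23 °C with 16 h of light and 8 h of dark. The labels name no disrupted gene and do not say how many plants were pooled or whether normal-looking segregants carried the mutation. Every sample is called wild type in its free-text description, against the titles and source names of the albino samples, and no targeted transcript could be checked. Nothing states that the replicates were separate cultures, so p-values measure no more than the spread between the arrays, and that spread may be technical.

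NDH sits in the thylakoid membrane, where it takes electrons from ferredoxin, passes them to plastoquinone and pumps protons. It works in cyclic electron flow around photosystem I and in chlororespiration, and in angiosperms it forms a supercomplex with photosystem I. Its plastid-encoded subunits fall into a membrane arm (ndhA, ndhC, ndhD, ndhE, ndhF and ndhG) and an arm in the stroma (ndhH, ndhI, ndhJ and ndhK), to which nuclear genes add further subunits. The plastid genes lie in separate transcription units. The genes ndhC, ndhK and ndhJ form a cluster in the large single-copy region. In the small single-copy region ndhH, ndhA, ndhI, ndhG, ndhE, psaC and ndhD are cotranscribed in that order, and ndhF is transcribed apart from them.

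All 10 ndh genes had higher values in the albino than in the control array of replicate 1, while in replicate 2 they split into 5 higher and 5 lower (44.7% of all probe sets were lower in replicate 2). Differences below are albino minus control on the log2 scale, so that 1 unit is a 2-fold change. The median difference over the 10 genes was 0.64 in replicate 1 and -0.01 in replicate 2, against 0.01 and 0.03 over all probe sets. The mean difference had a median of 0.40, which was -0.073 without albino replicate 1. By this count of signs, 50.9% of all probe sets were higher in replicate 1, 55.1% were higher in replicate 2 and 34.6% were higher in both. Of the 59 other measured plastid genes, 46 were higher in replicate 1, 33 in replicate 2 and 32 in both, and 12 were lower in both. The 5 ndh genes higher in both replicates were ndhC, ndhK, ndhJ, ndhD and ndhI, and none was lower in both, as 28.5% of all probe sets were. In replicate 2 the differences of ndhC (0.01), ndhI (0.03) and ndhA (-0.03) were smaller in size than the median over all probe sets. The signs of these genes in replicate 2, and the counts that rest on them, therefore say little. In 10 of 10 ndh genes the difference was larger in replicate 1 than in replicate 2, as it was in 54 of the 59 other measured plastid genes and in 48.2% of all probe sets. Differences over all probe sets also spread more widely in replicate 1 (SD 0.60) than in replicate 2 (SD 0.36).

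None of the 10 passed the test across the whole array. With limma, adjusted p over all 22746 probe sets lay between 0.927 and 1 for the ndh genes, and between 0.266 and 0.789 with a block for replicate number. The share of all probe sets called at an adjusted p under 0.05 was 0% in each direction in both fits. At an unadjusted p under 0.05, 0 of the 10 were higher (2.68% of all probe sets) and 0 were lower (3.08%), and with the block 1 was higher (7.17%) and 0 were lower (7.53%). The distributions of the deposited values match within each replicate number and not between numbers, so each difference is also given within replicate 1 and replicate 2. A single pair of arrays has no replicate error of its own. Where arrays of different number are set side by side below, as in the overlap of groups, their difference in scale is part of what is compared.

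**Figure D1:**
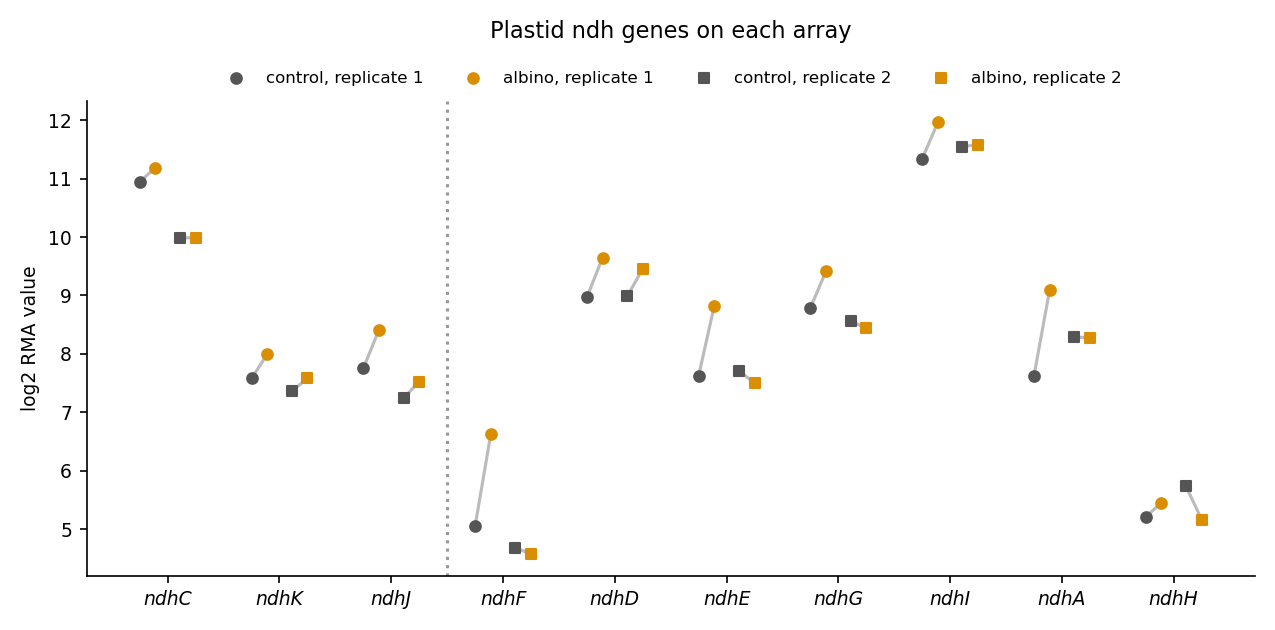
Values of the 10 plastid ndh genes on the 4 arrays (vertical axis, log2 RMA value), with grey for control, orange for albino, circles for replicate 1 and squares for replicate 2. Grey lines join the arrays of 1 replicate number, and the dotted line parts the ndhC, ndhK and ndhJ cluster from the small single-copy genes; every line rises in replicate 1, and 5 of 10 fall in replicate 2.

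The gene with the smallest p was ndhD, an antiporter-like subunit of the membrane arm. Its value was 8.97 in control replicate 1 and 8.98 in control replicate 2, and 9.65 and 9.46 in the albino arrays. The albino array was the higher in each pair, and as deposited both albino arrays lay above both control arrays. The difference was 0.58 (SE 0.25, limma adjusted p = 0.927), with 0.68 in replicate 1 and 0.47 in replicate 2, or 1.60-fold and 1.39-fold. With the block its unadjusted p was 0.0221 and its adjusted p 0.266. In replicate 2 this was the largest positive difference of the 10, above those of 93.4% of all probe sets. The difference of ndhD in replicate 1 was above those of 91.0%.

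Another antiporter-like subunit gene, ndhF, had opposite signs in the 2 replicates. Its values were 5.05 in the control and 6.62 in the albino array of replicate 1, and 4.68 and 4.57 in those of replicate 2. The albino array was thus clearly higher in replicate 1 and slightly lower in replicate 2. The difference of 0.73 (SE 0.67, limma adjusted p = 1) consisted of 1.57 in replicate 1, or 2.97-fold, and -0.11 in replicate 2. In replicate 1 it was larger than for 99.0% of all probe sets. The gene was dim, and apart from albino replicate 1 its values lay below the array medians (5.84 to 6.12). Without albino replicate 1 the difference of ndhF was -0.29, so the sign of the mean rests on that array.

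Higher values in replicate 1 and lower ones in replicate 2 were also seen for ndhA and ndhE. The gene ndhA codes for the membrane subunit next to the stromal arm, and its values were 7.63 and 9.09 in control and albino of replicate 1 and 8.30 and 8.27 in replicate 2. Its difference was 0.72 (SE 0.40), made up of 1.47 and -0.03, and it stayed positive, at 0.30, without albino replicate 1. For the small membrane subunit gene ndhE the values were 7.63 and 8.83 in replicate 1 and 7.71 and 7.499 in replicate 2. Its difference of 0.49 (SE 0.47) was 1.198 in replicate 1 and -0.21 in replicate 2, and without albino replicate 1 it was -0.17. Together with ndhF these were the 3 members at least 2-fold higher in replicate 1 (3.47% of all probe sets), and 0 members were so in replicate 2 (1.06%).

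The remaining membrane subunit genes had smaller differences. For ndhG the values were 8.79 and 9.42 in control and albino of replicate 1 and 8.56 and 8.44 in replicate 2, a difference of 0.25 (SE 0.39) that changed sign between replicates (0.63 and -0.12) and was -0.24 without albino replicate 1. For ndhC, the first gene of its cluster, they were 10.95 and 11.19 in replicate 1 and 9.98 and 9.99 in replicate 2. Its difference was 0.12 (SE 0.52, or 0.16 with the block), from 0.24 in replicate 1 and 0.01 in replicate 2. Without albino replicate 1 this difference was -0.48 and without control replicate 2 it was -0.36. Of the 6 membrane arm genes, 6 were higher in replicate 1 and 2 in replicate 2, with medians of 0.94 and -0.07.

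The stromal arm genes ndhI, ndhJ and ndhK were higher in both replicates, and ndhH was not. The values of ndhI, an iron-sulfur subunit, were 11.34 and 11.96 in control and albino of replicate 1 and 11.55 and 11.58 in replicate 2. The difference was 0.33 (SE 0.28), with 0.62 in replicate 1 and 0.03 in replicate 2, and it was 0.14 without albino replicate 1. With ndhD it made 2 of 10 members whose albino arrays both lay above both control arrays, against 16.2% of all probe sets. None lay below in the same sense, against 13.6%.

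For ndhJ the values were 7.75 and 8.41 in replicate 1 and 7.25 and 7.52 in replicate 2, a difference of 0.47 (SE 0.39) that was 0.0257 without albino replicate 1. For ndhK, which codes for another iron-sulfur subunit, they were 7.58 and 7.99 in replicate 1 and 7.36 and 7.58 in replicate 2, a difference of 0.31 (SE 0.28) that ran from 0.11 to 0.52 with 1 array left out. In both genes the albino array was the higher of each pair. The dim ndhH had 5.22 and 5.45 in replicate 1 and 5.73 and 5.17 in replicate 2. Its difference of -0.17 (SE 0.30) was the only negative mean of the 10, from 0.23 in replicate 1 and -0.57 in replicate 2, and it was 0.0925 without control replicate 2. Of the 4 stromal arm genes, 4 were higher in replicate 1 and 3 in replicate 2, with medians of 0.52 and 0.12.

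The question of whether the 2 gene regions moved alike was addressed by comparing the ndhC, ndhK and ndhJ cluster with the 7 genes of the small single-copy region. The cluster had a mean difference of 0.44 in replicate 1 and 0.17 in replicate 2, and its 3 genes were higher in both, ndhC by only 0.01 in replicate 2. The small single-copy genes had 0.91 and -0.08, with 2 of 7 higher in both replicates and 5 changing sign. Among these, the replicate 2 differences of ndhI (0.03) and ndhA (-0.03) were too small for their signs to count for much. The small single-copy mean minus the cluster mean therefore differed between albino and control by 0.48 in replicate 1 and by -0.25 in replicate 2, or 0.12 on average. An exact two-sided permutation test over the 4 arrays gave p = 1, where 2 arrays against 2 cannot give less than 0.333. The contrast was thus smaller than its spread between replicates (SD 0.51, n = 2) and had no common direction. Without ndhF it was 0.37 and -0.24 in the 2 replicates, and without ndhD 0.52 and -0.34. Without control replicate 1 the average contrast was -0.23.

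Within the cluster, differences followed the gene order in both replicates. They went from 0.24 for ndhC through 0.41 for ndhK to 0.66 for ndhJ in replicate 1, and from 0.01 through 0.22 to 0.28 in replicate 2. The steps between neighbours were between 0.06 and 0.25, where the SEs of the 3 genes ran from 0.28 to 0.52, or from 0.16 to 0.18 with the block. The order is a description of 3 genes and was not tested.

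The genes that share the small single-copy region with ndh were measured as well, apart from ycf1, which is not analysed here. The gene psaC codes for the iron-sulfur subunit of photosystem I that docks ferredoxin and is cotranscribed between ndhE and ndhD. Its values were 6.36 and 8.54 in control and albino of replicate 1 and 7.21 and 7.38 in replicate 2. The difference of 1.18 (SE 0.49, limma adjusted p = 0.899, block 0.405) was above that of every ndh gene, with 2.18 in replicate 1 and 0.17 in replicate 2. In replicate 1 psaC exceeded ndhE on its one side by 0.98 and ndhD on its other side by 1.499, while in replicate 2 ndhD exceeded psaC by 0.30.

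The gene ccsA, for a cytochrome c maturation protein, lies beside ndhD on the map. Its values were 8.91 and 10.62 in replicate 1 and 9.25 and 10.25 in replicate 2, so that both albino arrays lay above both controls. The difference was 1.35 (SE 0.29, limma adjusted p = 0.645, block 0.217), with 1.70 in replicate 1 and 0.99 in replicate 2. The ribosomal protein genes rpl32 and rps15 were lower in the albino array of replicate 1, where every ndh gene was higher. For rpl32, between ndhF and ccsA, the differences were -0.38 and -0.54 in the 2 replicates, and for rps15, next to ndhH, they were -0.81 and 0.16.

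**Figure D2:**
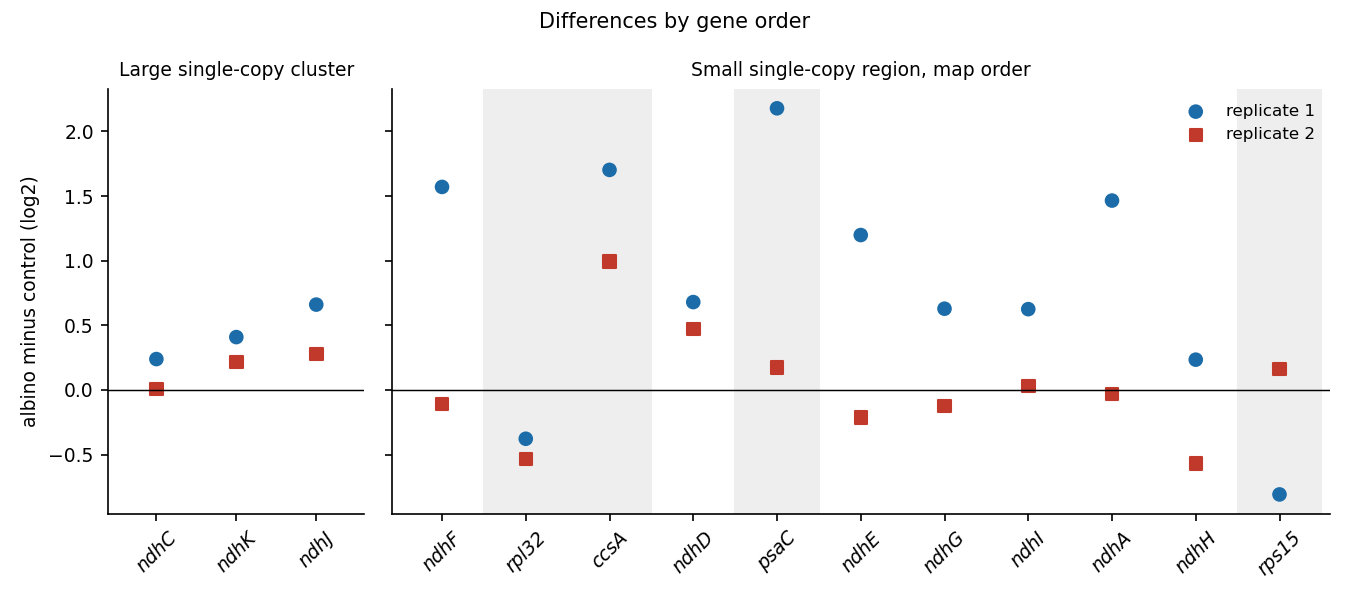
Albino minus control (vertical axis, log2) within replicate 1 (blue circles) and replicate 2 (red squares) for the ndhC, ndhK and ndhJ cluster and for the small single-copy region in map order (horizontal axis). Grey bands mark genes that are not ndh genes; replicate 1 lies above replicate 2 for every ndh gene, ccsA is near 1 or above in both replicates, and rpl32 is below 0 in both.

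Set against the other plastid-encoded genes, the ndh genes lay on average between those of the photosynthetic complexes and those of gene expression. The 33 photosystem, cytochrome b6f, ATP synthase and rbcL genes had medians of 1.43 in replicate 1 and 0.23 in replicate 2. The 19 ribosomal protein and polymerase genes had -0.02 and -0.69. Single genes of the groups overlapped. In replicate 1 the ndh genes ran from 0.23 to 1.57, the first group from -0.59 to 3.06 and the second from -1.22 to 2.13. The mean ndh difference was below the mean of the first group by a contrast of -0.52 in replicate 1 and -0.45 in replicate 2. It was above the mean of the second group by 0.70 and 0.53. Against all 59 other plastid genes the contrast was -0.06 and -0.10. These contrasts were added after the data were seen, and with 2 arrays against 2 no exact p under 0.333 could result, so none is given. Unlike the ndh differences themselves, each of these contrasts had the same sign and a similar size in both replicates (SD 0.05, 0.12 and 0.02 in the order given, n = 2 each). The last, against all 59 other plastid genes, was small and was 0.0296 without albino replicate 2.

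The order of the differences was also compared between replicates. Over the 59 other plastid genes, Pearson's r between the differences of replicate 1 and replicate 2, which share no array, was 0.82. Over the 10 ndh genes it was -0.03 (Spearman's rho 0.03). These are descriptions over genes of the same arrays, which are not independent, and the ndh genes covered a narrower range of differences (SD 0.48 and 0.29 in replicates 1 and 2, against 1.07 and 0.80).

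**Figure D3:**
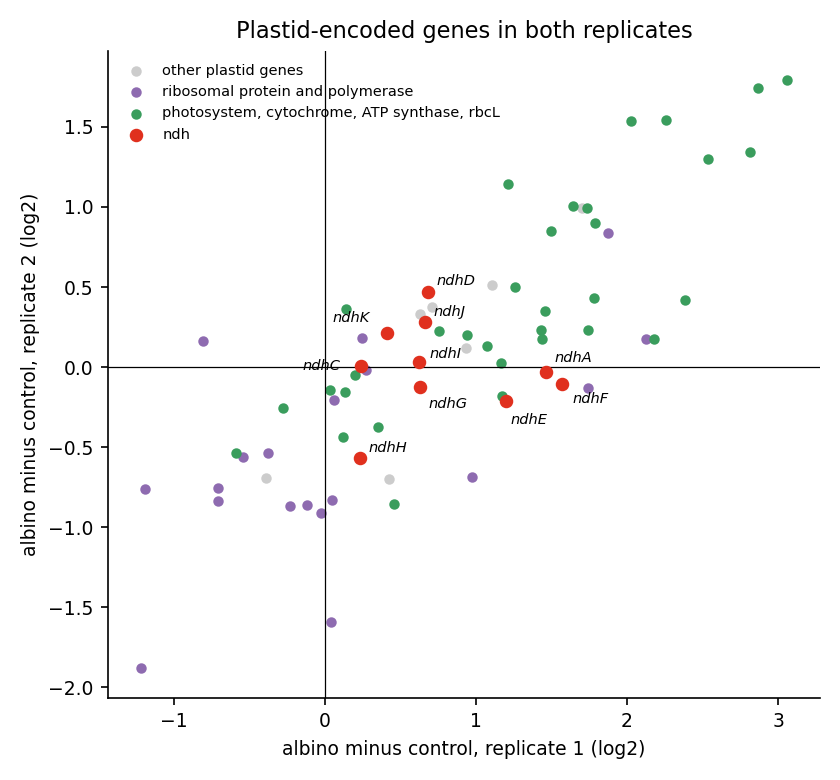
Albino minus control in replicate 1 (horizontal axis, log2) against replicate 2 (vertical axis, log2) for the 69 measured plastid-encoded genes, coloured by function, with ndh genes in red and named. The ndh genes all lie right of 0 on the horizontal axis and spread around 0 on the vertical axis, between the bulk of the green and of the purple points.

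**Figure D4:**
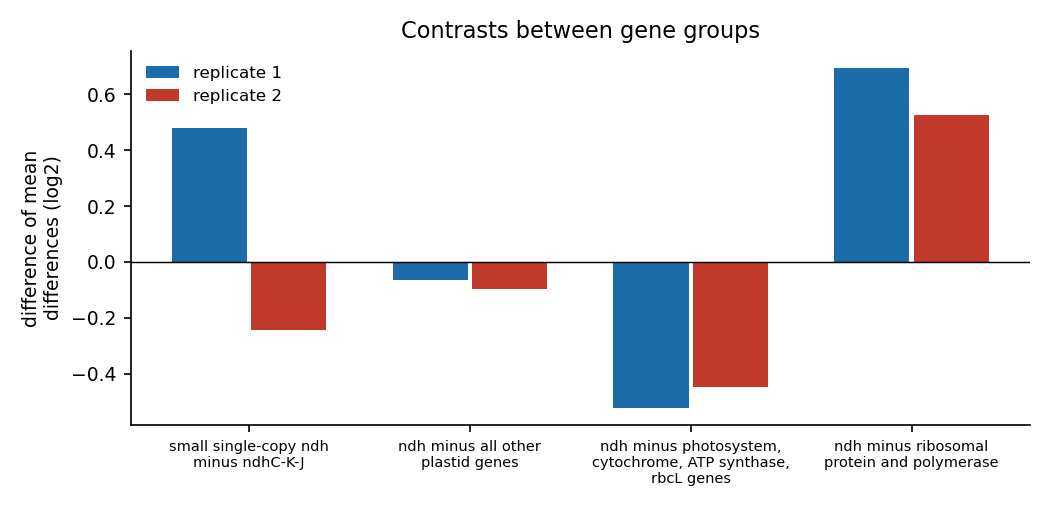
Differences between the mean differences of gene groups (vertical axis, log2), with blue bars for replicate 1 and red bars for replicate 2. The contrast of the small single-copy genes with the cluster changes sign (0.48 and -0.25), while those of ndh with the photosynthetic complexes (-0.52 and -0.45) and with ribosomal protein and polymerase genes (0.70 and 0.53) keep theirs.

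Nuclear genes of the NDH pathway had small differences. They were looked up by name, so some may be on the array under other names. The list held 46 genes for subunits, assembly and RNA editing factors, sigma factors and related electron flow proteins, of which 11 were matched. Its median difference was 0.01 in replicate 1 and 0.20 in replicate 2 (0.08 in the mean of both), and 0 of 11 were called in either direction (limma adjusted p = 1 for each, 0.325 to 0.966 with the block). Of the 11, 4 were higher and 1 was lower in both replicates, against 34.6% and 28.5% of all probe sets.

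The gene with the smallest p was NdhS, for the subunit that binds ferredoxin, with values of 9.75 and 10.23 in replicate 1 and 9.77 and 10.08 in replicate 2. Both albino arrays were above both control arrays, and the difference was 0.39 (SE 0.25). The membrane-bound subunit gene NdhL and the stromal subunit gene NdhN differed by 0.17 (SE 0.36) and 0.09 (SE 0.30), higher in both replicates. The 3 measured nuclear subunit genes were thus higher in both replicates, as 34.6% of all probe sets were.

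Factors acting on ndh transcripts and on assembly included 1 gene that was lower in both replicates. The gene CRR21, for a pentatricopeptide repeat protein needed to edit ndhD transcripts, had 5.14 and 4.58 in replicate 1 and 5.48 and 5.12 in replicate 2. The gene was dim, below the array medians (5.84 to 6.12) on every array. Its difference of -0.46 (SE 0.31) had the opposite sign to that of ndhD in both replicates, and a link between them was not tested. The editing factor gene CRR28 differed by 0.18 (SE 0.27) with opposite signs, -0.09 and 0.44. The assembly factor gene CRR41 differed by 0.20 in each replicate (SE 0.25). The other 5 measured genes lay between -0.06 and 0.08, and 5 of 5 changed sign between replicates.

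**Figure D5:**
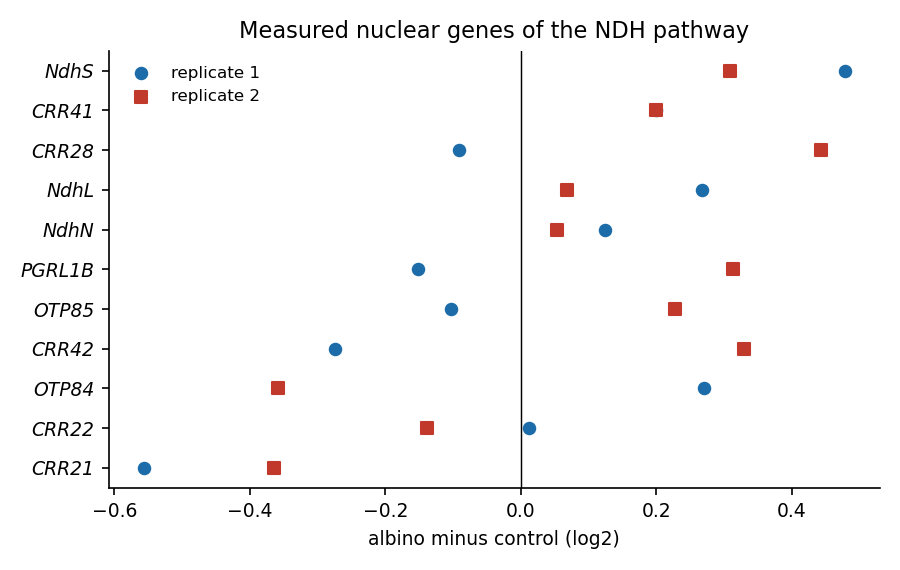
Albino minus control (horizontal axis, log2) in replicate 1 (blue circles) and replicate 2 (red squares) for the 11 measured nuclear genes of the NDH pathway, ordered by their mean difference. The symbols of CRR41 coincide at 0.20; NdhS, CRR41, NdhL and NdhN lie above 0 and CRR21 below 0 in both replicates.

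Organ markers were also looked up by name and few were matched, and the others may be on the array under other names. Of 6 root markers 3 were matched. Their summed level on a linear scale was 2364 and 514 in control and albino of replicate 1 and 1889 and 1207 in replicate 2. Most of it was PYK10, an abundant beta-glucosidase of roots, which differed by -2.29 in replicate 1 and -0.67 in replicate 2, while EXPA7 had -0.70 and 0.14 and EXPA18 had 0.18 and 0.27. Of 11 green tissue markers 1 was matched, the Rubisco activase gene RCA, with differences of 0.26 and 0.16. Of 3 meristem markers CLV3 was matched, with -0.66 and 0.26. EXPA7 and EXPA18 were dim, with values below the array medians (5.84 to 6.12) on every array. The root marker sum was thus lower in the albino array of both replicates, and by more in replicate 1, mostly through PYK10. It says little about roots in general, as EXPA18 was higher in both replicates. Its part in the ndh differences was not tested. In whole plants, a change in the share of green cells or in plastids per cell cannot be told apart from a change in RNA per plastid.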

How the data were processed

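Total RNA of 4 Arabidopsis samples was hybridized to arrays, from 16 µg of total RNA and 30 µg of labelled cRNA per the labels' protocols. The primer used for cDNA synthesis is not stated there, and how far it shaped the values of plastid transcripts was not tested. The authors deposited log2 values per probe set made with RMA, per the submitters' processing notes, with no software named. Between the arrays of 1 replicate number, quantiles (99 per array) differed by at most 0.07 and 0.085, and those of different number by up to 0.355, so the table looks normalized as 2 separate pairs. Statements that set arrays of different number side by side (overlap of the groups, SDs, fits with 1 array left out, nearest profiles) therefore also carry that difference in scale, and differences within a number do not.

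Groups came from the sample titles. By the platform annotation 13513 probe sets have 1 gene, 503 have several and 8730 have none. Gene records of the TAIR10.1 assembly, matched for 13436 probe sets, were used for names and gene order only. A gene with several probe sets was represented by the brightest, and each ndh gene had 1. No sequences of these genes were used here.

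The test was limma's moderated test (lmFit, eBayes, two-sided, version 3.58.1, R 4.3.3) over all 22746 probe sets, adjusted by Benjamini-Hochberg at 0.05. Residual degrees of freedom were 2, or 1 with a block for replicate number. The code was tested on simulated data. SEs come from the moderated fit that has no block, unless the block is named, so shifts between replicate numbers are part of them. Over the 10 ndh genes they ran from 0.25 to 0.67, and with the block from 0.16 to 0.45. The members and lists were chosen with earlier results of these data known. Named genes were the 10 members, their measured neighbours, the 6 nuclear pathway genes with the smallest p, the 5 genes nearest to each region's profile and the markers. Alternatives were quantile normalization, cyclic loess, centring on the brighter 50%, leaving out the dimmest 25%, the replicate block, a trended and robust prior, no moderation, single replicates and each array left out.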

Additional observations from a re-analysis of the deposited data

How the results depend on the processing

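The number of arrays limits the precision. Numbers 1 and 2 are not said to mark a shared plate or day. Arrays of the same number deviated together from their group means (Pearson's r = 0.66 over probe sets, 2 pairs), and the replicate block called 0 probe sets, as did the fit without it. Over the 3 scalings, 0 of 30 differences of ndh genes changed sign. The filter, block and prior leave a difference as it is, and over these and the scalings adjusted p ran from 0.266 to 1. The calls were 0 for the ndh genes and the nuclear list under each setting with a test, no moderation (added after seeing the data) included. With no variance moderation 1 probe set was called lower. Without 1 array the counts over all probe sets ran from 0 to 30 higher and 0 to 152 lower, the calls arising without albino replicate 2, which leaves a lone albino array assumed to vary like the controls. The ndh median ran from -0.073 (without albino replicate 1) to 0.73 (without albino replicate 2) and the nuclear median from -0.11 to 0.31. The small single-copy minus cluster contrast ran from -0.23 (without control replicate 1) to 0.46, was 0.48 in replicate 1 and -0.25 in replicate 2 alone, and lay between 0.06 and 0.28 under the other scalings, filter, summary and gene choices. The contrast of ndh with all other plastid genes ran from -0.19 to 0.0296. Single genes that changed sign without 1 array were ndhC (-0.48 to 0.72), ndhF (-0.29 to 1.76), ndhE (-0.17 to 1.16), ndhG (-0.24 to 0.74), ndhH (-0.43 to 0.0925), NdhL (-0.19 to 0.52), NdhN (-0.14 to 0.32), EXPA7 (-0.71 to 0.15), CLV3 (-0.96 to 0.56), rps15 (-1.06 to 0.41) and rpl32 (-1.44 to 0.52). Without 1 array the other ndh genes kept their sign, at 0.30 to 1.13 for ndhA, 0.48 to 0.67 for ndhD, 0.14 to 0.52 for ndhI, 0.03 to 0.91 for ndhJ and 0.11 to 0.52 for ndhK. Opposite to their mean were ndhF (-0.11), ndhE (-0.21), ndhG (-0.12), ndhA (-0.0303), EXPA7 (0.14), CLV3 (0.26) and rps15 (0.16) in replicate 2, and ndhH (0.23) and CRR28 (-0.0912) in replicate 1. The causes of these changes were not tested.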

Other observations

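Genes whose 4 values, centred on their own mean, lay closest to the mean profile of the small single-copy ndh genes were AT2G31100, AT1G70080, AT4G04750, AT1G13670 and AT3G42310, with Euclidean distances from 0.014 to 0.105 over 4 arrays. For AT2G31100 the difference was 0.90 in replicate 1 and -0.09 in replicate 2, against 0.91 and -0.08 for the ndh mean. Nearest to the ndhC, ndhK and ndhJ cluster were AT3G29310, AT5G41440, AT1G47610, AT1G48870 and AT4G09840, with distances from 0.009 to 0.082. All of these 10 are nuclear genes. Among the 100 nearest probe sets of 13503, 1 was plastid-encoded for the small single-copy genes and 0 for the cluster. With 4 points per gene and this many candidates, such likeness is a description only.

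In 10 of 10 ndh genes albino replicate 1 was above albino replicate 2, while control replicate 1 was above control replicate 2 in 5 of 10. The same counts over all probe sets are not given here, so whether these are unusual cannot be read from them. Array medians were 5.84 and 5.85 in control and albino of replicate 1, and 6.12 in both arrays of replicate 2. The arrays of different number look separately normalized, and the cause of these counts was not tested.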
